A study of Mus musculus with 6 samples.

Results

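This account covers 10 genes of osteoclast differentiation, namely Tnfrsf11a, Nfatc1, Dcstamp, Ocstamp, Oscar, Acp5, Mmp9, Ctsk, Atp6v0d2 and Calcr, out of 55335 mouse gene identifiers measured in RAW 264.7 cells, a wild-type mouse macrophage line that can form osteoclasts when it is given RANK ligand. The members were listed by name for their known roles, with earlier results of these data known. Poly(A) RNA of 6 libraries was sequenced. In 3 libraries the cells had 200 ng/ml lipopolysaccharide (LPS, a bacterial cell wall component) for 8 h together with 10 min of pulsed ultrasound of 1 MHz and 50 mW/cm², given as 200 µs pulses repeated at 1 kHz (duty cycle 20%). The LPS group, also 3 libraries, had the same LPS and no ultrasound. All cells had thus seen LPS, no cells without LPS and no cells given RANK ligand were analysed here, and nothing in the labels says whether the libraries of a group were separate cultures, so p-values cover only how these libraries vary, and that variation may be technical. The design asks what ultrasound changes in LPS-stimulated macrophages. Because the cells were measured in bulk, fewer cells making a transcript and less of it per cell cannot be told apart.

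Osteoclasts are the cells that resorb bone, and they arise by fusion of precursors of the macrophage lineage. M-CSF, acting on the receptor encoded by Csf1r, keeps the precursors alive, and RANK ligand (Tnfsf11) acts on RANK, the product of Tnfrsf11a. RANK signals through TRAF6 to NF-κB and AP-1, receptors that pair with ITAM adaptors add a calcium signal, and both inputs lead to NFATc1, the transcription factor that drives the programme. NFATc1 then turns on genes for cell fusion (Dcstamp, Ocstamp), for the collagen receptor OSCAR, for acid secretion and for enzymes that digest bone matrix. Inflammatory stimuli such as LPS are known both to halt early precursors and to push committed ones forward.

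The cells carried macrophage markers. Of 11 macrophage markers 9 averaged 1 FPKM or more (fragments per length of transcript and per size of the library), led by the lysosomal glycoprotein gene Cd68 at 668 ± 30.3 FPKM with ultrasound and 645 ± 35.1 FPKM with LPS alone (SD, n = 3 each, as in all such values here), followed by the lysosomal membrane gene Laptm5 at 355 ± 35.9 and 296 ± 46.5 FPKM, while Mrc1 and Mertk lay at or near 0. Of the 9 tested markers 4 were above and 5 below 0 in log2 fold change. At an unadjusted limma p under 0.05, 2 of the 9, Adgre1 and Fcgr1, were lower and 0 were higher. Of all tested genes 9.16% were lower and 6.18% higher. Adgre1 and Fcgr1 had 15.5 ± 2.04 and 42.3 ± 3.28 FPKM with ultrasound and 25.1 ± 7.98 and 51.05 ± 5.14 FPKM with LPS alone. The groups of Adgre1 overlapped. Both genes were chosen after their values were seen, and their part in the results was not tested. The neutrophil, skeletal muscle and fibroblast lists, checked because Mmp9 is also a neutrophil gene and because part of the deposited protocol text describes muscle, had no member with a mean of 1 FPKM. Of the 8 osteoblast markers only Runx2 reached it, at 0.808 ± 0.172 FPKM with ultrasound and 1.21 ± 0.0226 FPKM with LPS alone, and among 7 dendritic genes Itgax alone passed it, with 10.95 ± 1.78 FPKM with ultrasound and 8.64 ± 1.41 FPKM with LPS alone. LPS library 2 lay far from the rest on principal component 1, which held 41.9% of the variance (a score of 28.8, against -17.7 to -0.957 in the ultrasound libraries and 1.73 and 2.03 in LPS libraries 1 and 3). For the tested members and the pathway genes named by rule, log2 fold changes that moved by over 1.5 times without it are given both ways, here or in the closing section. This was not done for the marker genes, Adgre1 among them, or for genes named later.

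The osteoclast genes spanned a wide range of expression in these cells. Dcstamp, Tnfrsf11a and Nfatc1 lay at 6.03 to 23.3 FPKM in every library. The enzyme genes Acp5 and Mmp9 lay at 2.34 to 6.34 FPKM, which overlapped Nfatc1 in LPS library 2, and Ctsk and Atp6v0d2 near 1 FPKM, between 0.282 and 1.58. Ocstamp, Oscar and Calcr stayed at or below 0.102 FPKM in all 6 libraries. The order by mean with ultrasound was Dcstamp, Tnfrsf11a, Nfatc1, Acp5, Mmp9, Ctsk, Atp6v0d2, Ocstamp, Oscar and Calcr. Its neighbours Dcstamp and Tnfrsf11a, Ctsk and Atp6v0d2, and the last 3 genes had overlapping library values. With LPS alone Tnfrsf11a came before Dcstamp, Atp6v0d2 before Ctsk and Calcr before Oscar. There the library values of Tnfrsf11a and Dcstamp, Nfatc1 and Acp5, Acp5 and Mmp9, and Calcr and Oscar overlapped.

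**Figure D1:**
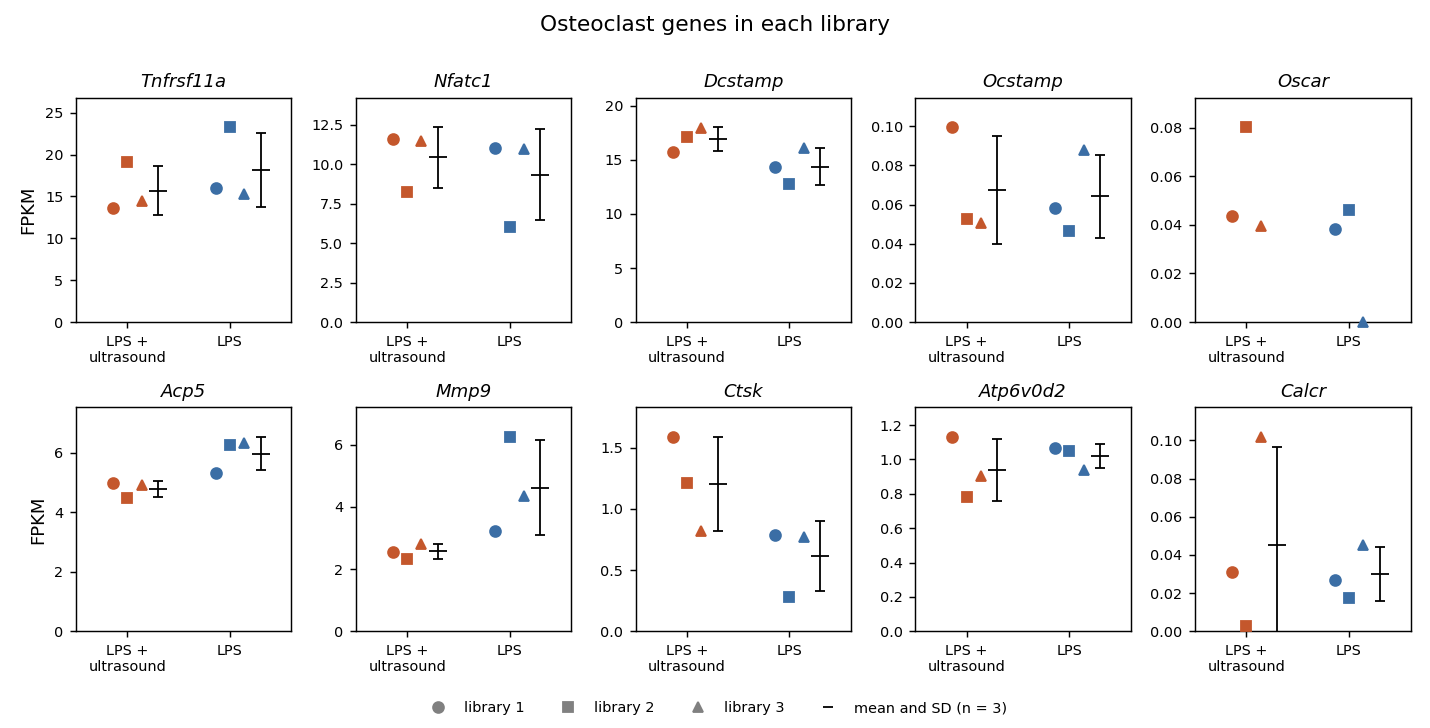
FPKM of each of the 10 osteoclast genes in every library, LPS plus ultrasound on the left and LPS on the right of each panel, with the library number as the marker shape and the mean ± SD (n = 3) beside the points; each vertical axis starts at 0 and has its own scale, and Oscar, listed at 0 in LPS library 3, has no mean drawn. Acp5 and Mmp9 lie lower in all 3 ultrasound libraries than in any LPS library, Ctsk lies higher, and the other 7 genes overlap.

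None of the osteoclast genes passed the test for a change with ultrasound. The limma test on log2(FPKM + 1) was run where the mean of all 6 libraries reached 1 FPKM, which took in 5 of the 10 members, Tnfrsf11a, Nfatc1, Dcstamp, Acp5 and Mmp9, each of them above 1 FPKM in every library. At an adjusted p under 0.05 (limma, Benjamini-Hochberg) 0 of these 5 passed, where 2 of the 11270 tested genes (0.0177%) did, both higher. With the replicate number as a block 0 of the 5 passed, where 13 genes (0.115%) did. Without adjustment 2 of the 5 passed at p under 0.05, both lower (Acp5 and Mmp9), where 15.3% of all tested genes passed and 9.16% passed as lower. With the block and without adjustment 4 of the 5 passed, Dcstamp higher and Tnfrsf11a, Acp5 and Mmp9 lower, where 29.7% of all tested genes passed, 12.6% as higher and 17.1% as lower. Acp5 and Mmp9 were the only tested members whose groups did not overlap, where the groups of 23.2% of all tested genes did not overlap, 13.4% lower and 9.8% higher. For a single gene, an exact permutation test of 3 against 3 libraries cannot give a two-sided p below 0.1, the value that Acp5, Mmp9 and Ctsk had.

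Promoter sequence is shown for Acp5 and Ctsk because their groups did not overlap and they differed in opposite directions. RefSeq windows (GRCm38.p6) were used for 5 of the 10 members, Acp5, Calcr, Ctsk, Oscar and Tnfrsf11a. No windows were at hand for Mmp9, Dcstamp, Ocstamp and Atp6v0d2, and Nfatc1 was left out by choice. The 250 bases before each annotated start were searched on both strands for the NFAT core GGAAA, the AP-1 site TGANTCA and the E-boxes CACGTG and CATGTG that MITF can bind. These letters occur in 55.6%, 6.75%, 6.02% and 12.3% of the 32851 windows of the same length. In the windows below capitals mark the motif matches. For Acp5 the 2 of 3 windows that overlap no annotated exon are given, and both lie on the minus strand at chr9:22135747-22135996 and chr9:22131866-22132115, while that of Ctsk lies on the plus strand at chr3:95498960-95499209.
Acp5, upstream start: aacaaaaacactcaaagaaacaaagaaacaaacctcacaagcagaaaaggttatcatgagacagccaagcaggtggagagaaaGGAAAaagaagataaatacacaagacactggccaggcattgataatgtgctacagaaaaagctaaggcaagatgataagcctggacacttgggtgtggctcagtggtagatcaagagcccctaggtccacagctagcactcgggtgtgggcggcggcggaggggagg
Acp5, middle start: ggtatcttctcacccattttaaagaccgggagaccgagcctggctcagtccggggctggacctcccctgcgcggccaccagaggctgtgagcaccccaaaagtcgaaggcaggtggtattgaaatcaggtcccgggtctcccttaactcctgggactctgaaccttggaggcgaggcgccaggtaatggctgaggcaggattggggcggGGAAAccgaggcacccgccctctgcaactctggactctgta
Ctsk: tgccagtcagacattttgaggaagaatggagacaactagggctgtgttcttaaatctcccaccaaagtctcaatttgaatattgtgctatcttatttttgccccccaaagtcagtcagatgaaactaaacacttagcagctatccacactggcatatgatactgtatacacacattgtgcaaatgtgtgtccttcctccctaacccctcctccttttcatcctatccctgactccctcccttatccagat
Each of these Acp5 windows held 1 NFAT core, with its first base at -167 and -41 counted from the start, and the Ctsk window held none of the 4 motifs. The AP-1 letters and CACGTG occurred in 0 of the 8 windows searched for these members. The Acp5 window not shown held 2 NFAT cores and 1 CATGTG, and the Oscar window 3 NFAT cores and 1 CATGTG. Of the Calcr windows 1 held 1 NFAT core, while the other and the Tnfrsf11a window held none of the 4 motifs. A match is a run of letters and not a binding site, and binding was not measured.

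Among the receptors and regulators at the top of the pathway, Tnfrsf11a and Nfatc1 had overlapping groups and did not pass the test. Tnfrsf11a (ENSMUSG00000026321), which encodes RANK, had 13.6, 19.1 and 14.4 FPKM in ultrasound libraries 1, 2 and 3, against 16.0, 23.3 and 15.3 FPKM in LPS libraries 1, 2 and 3. Library 2 was the highest of its group in both groups, and the groups overlapped. The log2 fold change was -0.19 ± 0.18 (standard error, as after every log2 fold change here), with a 95% interval of -0.62 to 0.24 (limma, Benjamini-Hochberg adjusted p = 0.63). Each same-numbered pair was lower with ultrasound (limma with the replicate block, Benjamini-Hochberg adjusted p = 0.12). The log2 fold change was -0.01 without LPS library 2 and -0.15 without both libraries numbered 2.

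Nfatc1 (ENSMUSG00000033016), the gene of the master transcription factor, had 11.6, 8.23 and 11.5 FPKM in the ultrasound libraries, against 11.05, 6.03 and 10.95 FPKM in the LPS libraries. Here library 2 was the lowest of its group in both groups, the reverse of Tnfrsf11a, and the groups overlapped. Its log2 fold change was 0.17 ± 0.23, with a 95% interval of -0.37 to 0.72 (limma, Benjamini-Hochberg adjusted p = 0.74), and it turned to -0.09 without LPS library 2 but was 0.06 without both libraries numbered 2. Each same-numbered pair was higher with ultrasound. Oscar (ENSMUSG00000054594), whose product is a collagen-binding receptor that signals through an ITAM adaptor, had 0.0438, 0.0801 and 0.0396 FPKM with ultrasound, against 0.0383 and 0.0462 FPKM and a listing at 0 with LPS alone. No fold is given for values this close to 0, and an exact 0 in such a table can be a failed estimate.

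**Figure D2:**
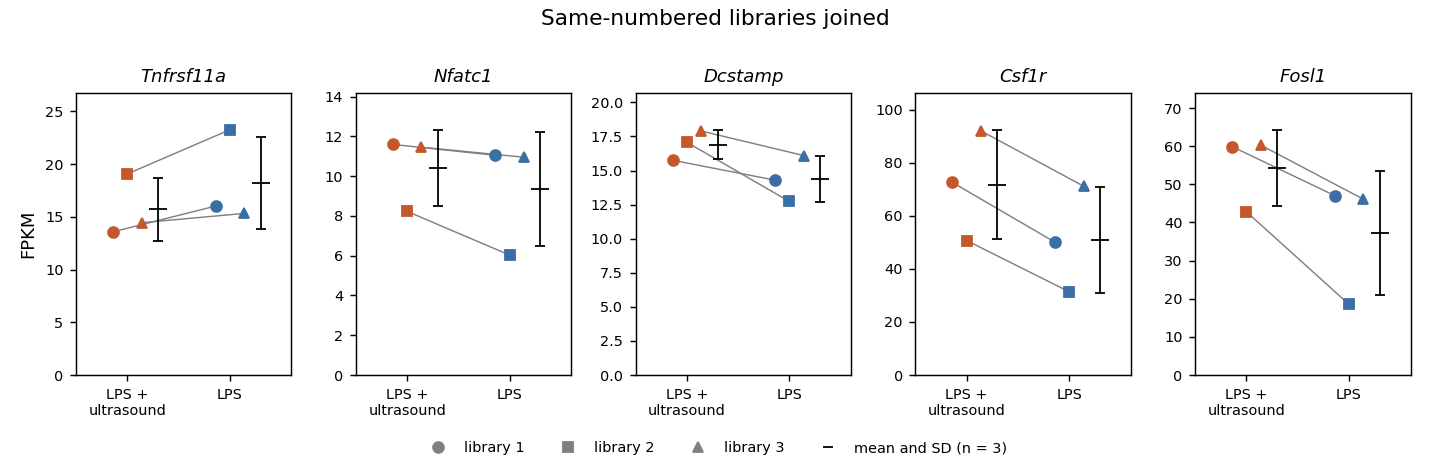
FPKM of Tnfrsf11a, Nfatc1, Dcstamp, Csf1r and Fosl1 in each library, LPS plus ultrasound on the left and LPS on the right, with grey lines that join libraries of the same number and the mean ± SD (n = 3) beside the points; axes start at 0. Library 2 is the highest of its group for Tnfrsf11a and the lowest for Nfatc1, Csf1r and Fosl1 in both groups, and each of the 3 lines slopes the same way within each gene. The labels state no pairing. Of the members not drawn, the pairs of Acp5, Mmp9, Ctsk and Oscar each went 1 way. Those of Atp6v0d2, Calcr and Ocstamp went both ways. How many of all tested genes have pairs that go 1 way was not counted.

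The 2 genes of the fusion machinery stood at opposite ends of the range. Dcstamp (ENSMUSG00000022303), which encodes a multi-pass membrane protein needed for osteoclasts to fuse, had 15.8, 17.1 and 17.9 FPKM with ultrasound, against 14.3, 12.7 and 16.1 FPKM with LPS alone. The highest LPS library exceeded the lowest ultrasound library, so the groups overlapped, although each same-numbered pair was higher with ultrasound. The log2 fold change was 0.22 ± 0.10, with a 95% interval of -0.01 to 0.46 (limma, Benjamini-Hochberg adjusted p = 0.35). It was 0.15 without LPS library 2 and 0.12 with array weights. With a mean above that of 69.4% of tested genes, Dcstamp and Tnfrsf11a (71.6%) were the most abundant members. Ocstamp (ENSMUSG00000027670), its partner in fusion, had 0.0993, 0.0528 and 0.0505 FPKM with ultrasound, against 0.0581, 0.0466 and 0.0876 FPKM with LPS alone. If the step at which low values pile up is 1 fragment, these values stand for 5 to 10 fragments a library.

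Among the enzyme genes, Mmp9 and Acp5 were lower and Ctsk was higher in every ultrasound library than in every LPS library. Mmp9 (ENSMUSG00000017737), the gelatinase gene, had 2.54, 2.34 and 2.82 FPKM with ultrasound, against 3.23, 6.26 and 4.36 FPKM with LPS alone. The ultrasound libraries lay close together and the LPS libraries were spread out, with library 2 the highest. The ratio of means was 0.556, and the log2 fold change of -0.62 ± 0.19, with a 95% interval of -1.07 to -0.17, was not past the threshold (limma, Benjamini-Hochberg adjusted p = 0.24). It was -0.42 without LPS library 2 and -0.37 without both libraries numbered 2. The neutrophil markers, whose cells also store this enzyme, had a summed level of 0.447 to 0.719 FPKM with ultrasound and 0.389 to 0.781 FPKM with LPS alone. The most abundant were Cxcr2, at 0.185 to 0.309 FPKM over the 6 libraries, and S100a8, at 0 to 0.490 FPKM. S100a9, Elane and Mmp8, named after their values were seen, were listed at 0 in all 6 libraries.

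Acp5 (ENSMUSG00000001348), which encodes the tartrate-resistant acid phosphatase used to stain osteoclasts, had 4.98, 4.49 and 4.92 FPKM with ultrasound, against 5.32, 6.26 and 6.34 FPKM with LPS alone. The gap between the groups, 4.98 to 5.32 FPKM, was narrow. The ratio of means was 0.802 and the log2 fold change -0.27 ± 0.10, with a 95% interval of -0.49 to -0.04 (limma, Benjamini-Hochberg adjusted p = 0.27). Without LPS library 2 it was -0.24. In the GENCODE M21 annotation exons of Acp5 overlap those of the antisense gene 6530413G14Rik, which had 0.396, 0.28 and 0.472 FPKM with ultrasound and 0.24, 0.0628 and 0.374 FPKM with LPS alone. Whether the counting used strand is not given in the sources used here, so the origin of reads from the shared stretch cannot be told apart.

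Ctsk (ENSMUSG00000028111), which encodes cathepsin K, the collagen-cleaving protease of bone resorption, had 1.58, 1.21 and 0.816 FPKM with ultrasound, against 0.787, 0.282 and 0.769 FPKM with LPS alone. All ultrasound libraries were higher, by a gap of 0.787 to 0.816 FPKM, and LPS library 2 was by far the lowest. The ratio of means was 1.97, and the difference of log2(FPKM + 1) was 0.45. With a mean of 0.909 FPKM it lay under the filter. In a fit of all 28082 genes with a value above 0 it stayed short of the threshold (limma, Benjamini-Hochberg adjusted p = 0.55, and 0.33 among the 16658 genes that averaged 0.1 FPKM or more). The difference was 0.30 without LPS library 2 and 0.29 without both libraries numbered 2. If 1 step of the table is 1 fragment, Ctsk rested on 66, 47 and 33 fragments in the ultrasound libraries and on 34, 13 and 29 in the LPS libraries.

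Of the remaining members, Atp6v0d2 (ENSMUSG00000028238), a proton pump subunit gene that is also needed for fusion, had 1.13, 0.780 and 0.906 FPKM with ultrasound, against 1.07, 1.05 and 0.939 FPKM with LPS alone. The groups overlapped, and the difference of log2(FPKM + 1) was -0.06, or 0.0094 without both libraries numbered 2. Its more broadly used paralog Atp6v0d1 was much more abundant, at 186 ± 5.49 and 180 ± 5.85 FPKM in the same order of groups. Calcr (ENSMUSG00000023964), the calcitonin receptor gene and a marker of mature osteoclasts, had 0.0310, 0.00301 and 0.102 FPKM with ultrasound, against 0.0271, 0.0174 and 0.0454 FPKM with LPS alone. The groups overlapped, and the SD with ultrasound, 0.0510 FPKM, was above the mean of 0.0453 FPKM. The 0.00301 FPKM of ultrasound library 2 lies under 0.0091 FPKM, the lowest value of Calcr for 1 fragment if 1 step is 1 fragment. In the fit of all 28082 genes Ocstamp, Oscar and Calcr had adjusted p of 0.96, 0.67 and 0.83 (limma, Benjamini-Hochberg).

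**Figure D3:**
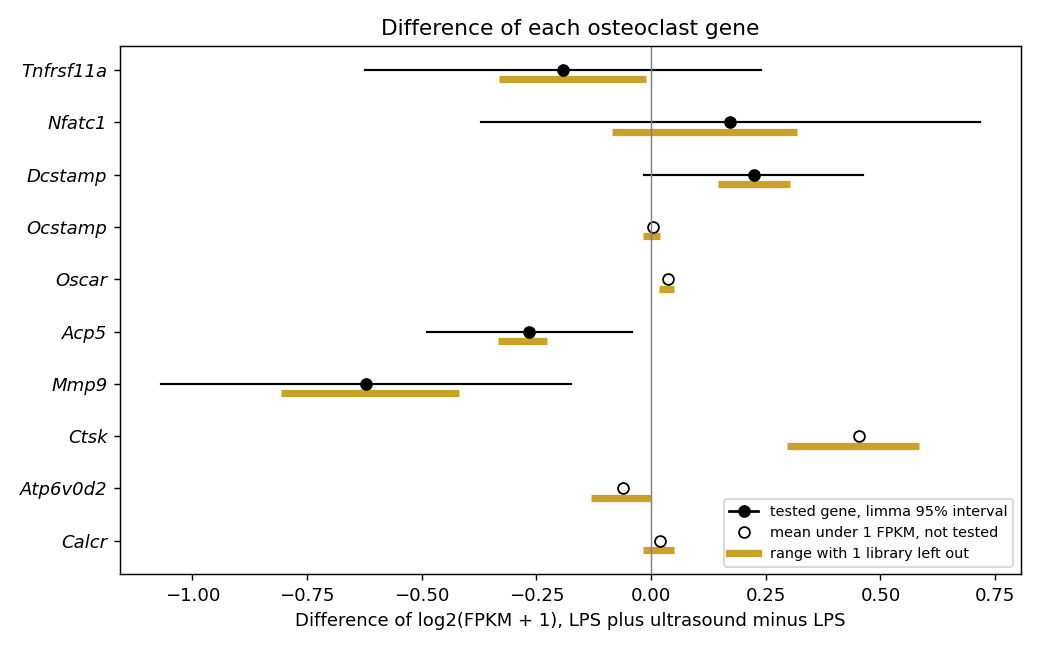
LPS plus ultrasound minus LPS difference on the log2(FPKM + 1) scale for each osteoclast gene; filled points are the 5 tested genes with limma's 95% interval, open points are the 5 genes with a mean under 1 FPKM, and yellow bars show the range when each library is left out in turn. The intervals of Acp5 and Mmp9 lie below 0 before adjustment over all genes, and the yellow bars of Nfatc1, Ocstamp and Calcr cross 0.

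The wider pathway was described with 7 lists that hold 122 other genes, of which 101 were tested. None of the 101 passed after adjustment (limma, Benjamini-Hochberg), with or without the block. Without adjustment, 6 were higher and 13 lower at p under 0.05, where 6.18% and 9.16% of all tested genes were. With the block and without adjustment, 14 were higher and 20 lower, where 12.6% and 17.1% of all tested genes were. The median log2 fold change of all tested genes was -0.02. Groups did not overlap for 9.8% of all tested genes as higher and 13.4% as lower. RANK signalling had 2 higher and 4 lower of 18, and the ITAM list 0 and 2 of 14. Activating factors had 1 and 1 of 11, inhibitory regulators 2 and 3 of 15, and fusion and attachment 2 and 1 of 10. Acid secretion had 5 and 1 of 21, and the precursor list 0 and 2 of 12. Genes named for a small p tend to be separate, so that adds no support.

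In RANK signalling 18 of 21 genes were tested, with a median log2 fold change of -0.11, 6 above 0 and 12 below. The ligand gene Tnfsf11 was listed at 0 in 5 libraries and the decoy receptor gene Tnfrsf11b in all 6. Traf6, the adaptor gene directly below RANK, had 13.6 ± 1.35 FPKM with ultrasound and 13.2 ± 1.47 FPKM with LPS alone. Traf6, Tnfsf11 and Tnfrsf11b are named for their place in the pathway, after their values were seen. Nfkb2, the gene of the alternative NF-κB precursor p100, had 89.7 ± 11.6 FPKM with ultrasound and 119 ± 8.88 FPKM with LPS alone (log2 fold change -0.41 ± 0.11, limma, Benjamini-Hochberg adjusted p = 0.22). Traf3, which restrains that alternative branch, had 11.8 ± 0.537 and 8.98 ± 1.47 FPKM in the same order of groups (0.36 ± 0.12). The scaffold gene Gab2 had 22.1 ± 1.40 FPKM with ultrasound and 26.3 ± 1.90 FPKM with LPS alone (-0.24 ± 0.08). Nfkb2, Traf3 and Gab2 had groups that did not overlap. Tab2, an adaptor of the kinase TAK1, had 43.4 ± 6.40 and 54.4 ± 10.4 FPKM, and its groups overlapped.

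In the ITAM, calcium and calcineurin list 14 of 15 genes were tested, with a median of 0.04. The adaptor genes Fcer1g and Tyrobp, through which OSCAR and TREM2 signal, were abundant, at 896 ± 63.5 FPKM with ultrasound and 902 ± 68.3 FPKM with LPS alone for Fcer1g and 224 ± 14.1 and 209 ± 12.9 FPKM for Tyrobp. Blnk, an adaptor of the Syk and Btk cascade, had 17.3 ± 1.06 FPKM with ultrasound and 21.1 ± 1.08 FPKM with LPS alone (log2 fold change -0.27 ± 0.08, limma, Benjamini-Hochberg adjusted p = 0.22). Its groups did not overlap. The kinase gene Btk had 18.6 ± 1.95 and 15.9 ± 0.853 FPKM (0.21 ± 0.10), and Nfatc3, a relative of Nfatc1, 13.4 ± 1.25 and 11.03 ± 1.72 FPKM (0.27 ± 0.13). Both overlapped between groups, and Nfatc3 was at 0.16 without LPS library 2.

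Of the activating transcription factors 11 of 14 were tested, with a median of 0.01. Spi1, which encodes the lineage factor PU.1, had 153 ± 14.6 FPKM with ultrasound and 145 ± 20.5 FPKM with LPS alone, and the AP-1 gene Junb had 223 ± 14.9 and 255 ± 34.9 FPKM (-0.19 ± 0.11, or -0.09 without LPS library 2). Ppargc1b, a coactivator of mitochondrial biogenesis in osteoclasts, had 1.55 ± 0.194 FPKM with ultrasound and 2.68 ± 0.768 FPKM with LPS alone (log2 fold change -0.51 ± 0.16, limma, Benjamini-Hochberg adjusted p = 0.24). The AP-1 family gene Jdp2 had 81.0 ± 0.0632 and 72.5 ± 4.43 FPKM (0.16 ± 0.07). The groups of Ppargc1b and Jdp2 did not overlap. Fosl1, which encodes Fra-1, had 59.9, 42.8 and 60.3 FPKM with ultrasound, against 47.1, 18.5 and 46.1 FPKM with LPS alone. Its log2 fold change was 0.63 ± 0.35, or 0.20 without LPS library 2 and 0.36 without both libraries numbered 2.

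Among the inhibitory regulators 15 of 16 genes were tested, with a median of -0.23, 5 above 0 and 10 below. Without adjustment 5 were lower and 2 higher at p under 0.05, where 9.16% and 6.18% of all tested genes were. The other pathway lists had 1 or 2 lower and 0 to 2 higher. With the block and without adjustment 5 inhibitory regulators were lower and 2 higher, where 17.1% and 12.6% of all tested genes were. The precursor and cytokine list then also had 5 lower and 2 higher, of 12 tested. Id3, which encodes a helix-loop-helix inhibitor, had 3.29, 3.59 and 4.41 FPKM with ultrasound, against 4.52, 10.5 and 8.81 FPKM with LPS alone (log2 fold change -0.85 ± 0.26, limma, Benjamini-Hochberg adjusted p = 0.24). The groups were separate by a narrow gap at LPS library 1. Cyld, a deubiquitinase gene that curbs RANK signalling, had 3.85 ± 0.185 FPKM with ultrasound and 4.92 ± 0.214 FPKM with LPS alone (-0.29 ± 0.08), and the adaptor gene Dok1 had 14.9 ± 1.38 and 19.7 ± 2.47 FPKM (-0.38 ± 0.11). The phosphatase gene Ptpn6 and the inhibitory receptor gene Lilrb4a had overlapping groups, at 110 ± 7.99 and 95.4 ± 3.59 FPKM with ultrasound and 114 ± 10.1 and 113 ± 18.6 FPKM with LPS alone. The log2 fold change of Lilrb4a was -0.23 ± 0.12, or -0.10 without LPS library 2. Irf8, the interferon regulatory factor that holds NFATc1 in check, was named after its values were seen and had 1.38, 3.04 and 1.46 FPKM with ultrasound, against 2.54, 4.19 and 4.91 FPKM with LPS alone (-0.73 ± 0.26, limma, Benjamini-Hochberg adjusted p = 0.27). Its groups overlapped through ultrasound library 2 and LPS library 1, and it was lower with ultrasound in each same-numbered pair.

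**Figure D4:**
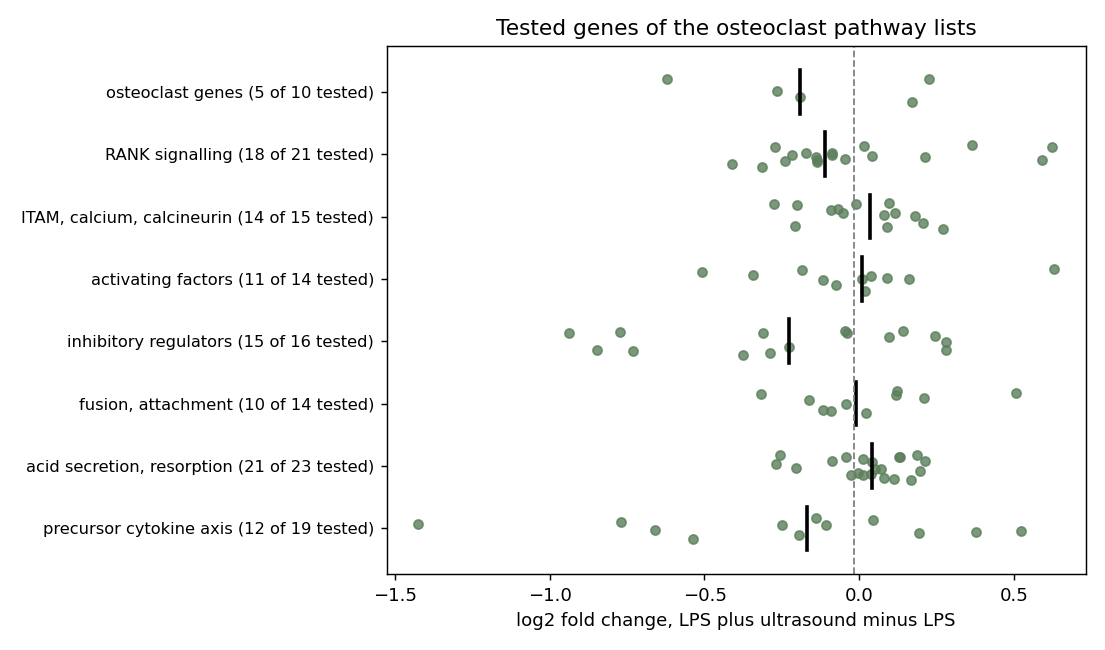
Log2 fold change, LPS plus ultrasound minus LPS, of each tested gene in the osteoclast gene list and in the 7 lists of the wider pathway; a point is a gene, a black bar the median of its list and the dashed line the median of all 11270 tested genes, -0.02. The inhibitory regulators have the lowest median, -0.23, and the spread within each list is wider than the distance of its median from the dashed line.

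For fusion and attachment 10 of 14 genes were tested, with a median of -0.01, and Itgb3, the β3 integrin subunit gene of osteoclast attachment, was under the filter at 0.501 ± 0.0849 FPKM with ultrasound and 0.521 ± 0.0428 FPKM with LPS alone. It was named after its values were seen. Tm4sf19, which encodes a membrane protein found in osteoclasts, had 11.3, 11.6 and 10.7 FPKM with ultrasound, against 9.45, 7.02 and 6.57 FPKM with LPS alone (log2 fold change 0.51 ± 0.13, limma, Benjamini-Hochberg adjusted p = 0.21). All ultrasound libraries were higher, and of the 101 tested pathway genes it had the smallest p. The tetraspanin genes Cd9 and Cd81 had differences of opposite sign, with 198 ± 11.5 and 49.9 ± 1.36 FPKM with ultrasound and 171 ± 16.3 and 62.8 ± 8.91 FPKM with LPS alone (0.21 ± 0.09 and -0.32 ± 0.11). The groups of neither overlapped, and Cd9 was at 0.13 without LPS library 2. The groups of the metalloprotease gene Adam8, at 150 ± 10.0 and 139 ± 15.8 FPKM, overlapped.

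In acid secretion and resorption 21 of 23 genes were tested, with a median of 0.04, 14 above 0 and 7 below. Tcirg1, which encodes the a3 proton pump subunit that osteoclasts need to acidify bone, had 113.8, 105.9 and 110.1 FPKM with ultrasound, against 121.4, 127.2 and 132.1 FPKM with LPS alone (log2 fold change -0.21 ± 0.07, limma, Benjamini-Hochberg adjusted p = 0.25). The pump subunit gene Atp6v1h had 34.1 ± 0.921 FPKM with ultrasound and 29.6 ± 1.38 FPKM with LPS alone (0.20 ± 0.07), and Atp6v0b had 91.1 ± 9.06 and 78.2 ± 4.42 FPKM (0.21 ± 0.09). The groups of Tcirg1 and Atp6v1h did not overlap and those of Atp6v0b did. Ctsb, a broadly expressed lysosomal protease gene, had 347 ± 7.77 FPKM with ultrasound and 348 ± 22.5 FPKM with LPS alone, far above its osteoclast relative Ctsk on the same scale per length.

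In the precursor and cytokine list 12 of 19 genes were tested, with a median of -0.17. Csf1r, the M-CSF receptor gene, had 72.6, 50.7 and 92.0 FPKM with ultrasound, against 50.1, 31.4 and 71.1 FPKM with LPS alone. The groups overlapped, while each same-numbered pair was higher with ultrasound (log2 fold change 0.52 ± 0.32, limma, Benjamini-Hochberg adjusted p = 0.46). Its log2 fold change was 0.22 without LPS library 2 and 0.45 without both libraries numbered 2. Csf2, the gene of GM-CSF, which diverts precursors from the osteoclast path, had 4.799, 3.996 and 6.66 FPKM with ultrasound, against 6.91, 8.57 and 7.96 FPKM with LPS alone (-0.54 ± 0.16, limma, Benjamini-Hochberg adjusted p = 0.24). The receptor gene Csf2ra had 19.8 ± 1.37 and 23.7 ± 1.14 FPKM (-0.25 ± 0.08), and neither gene overlapped between groups. The inflammatory cytokine genes Il1b and Tnf, which promote resorption, had 4.70 ± 2.47 and 67.4 ± 11.5 FPKM with ultrasound and 17.7 ± 16.3 and 128 ± 76.3 FPKM with LPS alone. LPS library 2 was the highest for both genes, and the groups overlapped. Their log2 fold changes were -1.42 ± 0.62 and -0.77 ± 0.38, or -0.74 and -0.32 without that library.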

How the data were processed

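The authors deposited FPKM values of 55335 mouse Ensembl identifiers, 1 column per library, and no counts. The aligner, the quantifier, the strand setting and a mouse build were not given in the sources used here. Per the submitters' processing notes the build is mRatBN7.2, a rat assembly, which the identifiers do not match. Names came from GENCODE M21, for 55154 identifiers. FPKM sums were 278871 to 292200 per library. Low values pile up at steps that would mean 25200000 to 29300000 fragments per library, but not all values are multiples of a step, so counting error is unknown.

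The test was a two-sided limma fit (limma 3.58.1, R 4.3.3) of log2(FPKM + 1) with its trend and robust options. P-values were adjusted by Benjamini-Hochberg over the 11270 genes whose mean reached 1 FPKM, and the fit was checked on simulated data. The simulated noise was independent between genes and libraries. That check therefore does not cover differences that many genes of a library share, as in LPS library 2. The log2(FPKM + 1) scale understates changes of low genes. Titles give both groups the numbers 1, 2 and 3. Deviations from the group means correlated across genes at 0.177, 0.442 and 0.409 between same-numbered libraries and at -0.398 to 0.0567 between the others. Deviations within a group sum to 0, so these correlations depend on each other. Neither labels nor design state a pairing, so the main fit had no block. A fit with the replicate number as a block was an alternative. Named genes were the members and, per list, up to 3 with the smallest p and the 2 most abundant (2 per marker list); others are marked as chosen later. The fibroblast markers and the other marker genes of the rule lay below 1 FPKM. The members and lists were chosen with earlier results of these data known.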

Additional observations from a re-analysis of the deposited data

How the results depend on the processing

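The 5 tested osteoclast genes gave 0 calls in limma with Benjamini-Hochberg adjustment in every alternative except the unadjusted threshold, where 2 passed, and the pathway lists likewise gave 0 calls, or 19 unadjusted. Over all tested genes the count of 2 became 5 with libraries scaled to the same sum, 223 with array weights, 6 without both libraries numbered 2, 1729 unadjusted, and 2 to 8 with each library left out. With the replicate block 13 genes passed, 4 higher and 9 lower, and the block changed no call of a member or a pathway gene. The median log2 fold change of the tested members was -0.19, and -0.27 to -0.09 with each library left out; it kept its sign in every alternative. Nfatc1 turned to -0.0851 without LPS library 2 and ran from -0.0851 to 0.319 with each library left out, Spi1 from -0.0216 to 0.183 and Ptpn6 from -0.102 to 0.0267. Fcer1g turned to 0.0101 with median-ratio scaling, was -0.32 with quantile normalization and ran from -0.0665 to 0.0474. Ctsb turned to 0.0161 with median-ratio scaling, 0.0158 with quantile normalization, 0.0369 with array weights and 0.0609 without both libraries numbered 2, and ran from -0.0498 to 0.0430. Under the filter, the differences near 0 of Atp6v0d2, Calcr and Ocstamp turned to 0.0094 without both libraries numbered 2, -0.0184 without ultrasound library 3, and -0.0168 and -0.0073 without ultrasound library 1 and LPS library 2. With a pseudocount of 0.1 the difference of Ctsk grew to 0.93. Array weights, other moderation, quantile normalization and the block gave no value for the 5 members under the filter, which those fits left out. The cause of the shifts listed above was not tested. Ocstamp, Oscar and Calcr lay near 0, and how far depth limits them is unknown without counts.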
